A study of Danio rerio with 24 samples.

Results

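The genes described here mark the intermediate mesoderm of the zebrafish embryo and the pronephros, the embryonic kidney that forms from it. They were chosen by gene symbol, with earlier results of these data known. They number 8 (pax2a, pax8, lhx1a, osr1, wt1a, wt1b, cdh17 and wnt9b) of 19372 genes in the tables. Each symbol had 1 row in the table of each treatment time. RNA-Seq was performed on whole embryos of the Tg(snail1b:GFP) reporter strain, which every group carried, controls included. The embryos were given TP-0903, a multi-kinase inhibitor, or its solvent DMSO from 13 hpf, the 8-somite stage. Treatment lasted 1 h (to 14 hpf, 10 somites), 4 h (to 17 hpf, 16 somites) or 8 h (labelled 19.5 hpf, 21 somites, although 13 hpf and 8 h add to a later age). Each of the 6 conditions had 4 replicate libraries, and the labels give 35 whole embryos for a sample. The dose of TP-0903 used for sequencing was not given in the sources used here.

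The intermediate mesoderm lies in a stripe on each side of the embryo between the somites and the lateral plate, and its cells become the tubule and duct of the pronephros. The lateral plate beside it gives rise to blood and vessel progenitors. In zebrafish, retinoic acid (RA) patterns the pronephros along its length, favouring proximal over distal segments. Pax2a, Pax8 and Lhx1a are transcription factors of the early kidney field, Osr1 is a zinc finger factor needed in zebrafish for the proximal pronephros, and Wt1a and Wt1b are paralogous zinc finger factors of the podocytes, the filtering cells of the glomerulus. cdh17 encodes a cadherin of the tubule and duct epithelium. wnt9b encodes a secreted Wnt ligand, which in the mouse is made by the kidney duct and induces nephrons. Several of these genes are also active elsewhere: pax2a at the midbrain-hindbrain boundary and in the optic stalk, ear and spinal interneurons, pax8 in the ear, and lhx1a in spinal interneurons.

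Total counts on genes were between 3879310 and 10582470 per library, and at 1 h the DMSO libraries were shallower (median 4235556) than those given TP-0903 (median 8561006). Levels are given as CPM, a gene's counts relative to the library's total and scaled between the libraries of a time point by TMM, and differences as log2 fold changes of TP-0903 against DMSO from edgeR's quasi-likelihood test, with Benjamini-Hochberg adjustment over all genes tested at that time. A gene is said to rise or fall where the adjusted p was under 0.05. The response to the compound was read from cyp26a1, an RA-induced gene whose product degrades RA. It rose 17.1-fold at 4 h (adjusted p 4.15e-05, edgeR) and 6.66-fold at 8 h (adjusted p 3.36e-07, edgeR), and at 1 h it was 7.02-fold higher in the mean without passing adjustment (adjusted p 0.0635, edgeR). None of 15530 genes tested at 1 h passed (214 had an unadjusted p under 0.05, and DESeq2 called 14), while 118 of 15953 passed at 4 h and 5050 of 17478 at 8 h.

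After 8 h of TP-0903, 4 of the 8 genes had changed: lhx1a, wt1a and wnt9b rose and cdh17 fell. Among all genes tested at 8 h, 28.9% passed the same threshold, 15.4% upward and 13.5% downward. The median log2 fold change of the 8 genes was 0.29, beside -0.0062 for all genes. pax2a, pax8, osr1 and wt1b did not pass. At 1 h none of the 7 genes tested passed (0.0% of all genes did), and at 4 h none of the 8 did (0.74% of all genes). At an unadjusted p under 0.05, 1 gene passed at 1 h and 1 at 4 h, wnt9b both times (edgeR). Among all genes, 214 of 15530 passed that threshold at 1 h and 1505 of 15953 at 4 h. DESeq2 called 0 of the 8 at either time, where it called 14 of all genes at 1 h and 213 at 4 h. The RNA came from whole embryos, so fewer or more cells of a type and less or more RNA in each cell cannot be told apart.

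**Figure D1:**
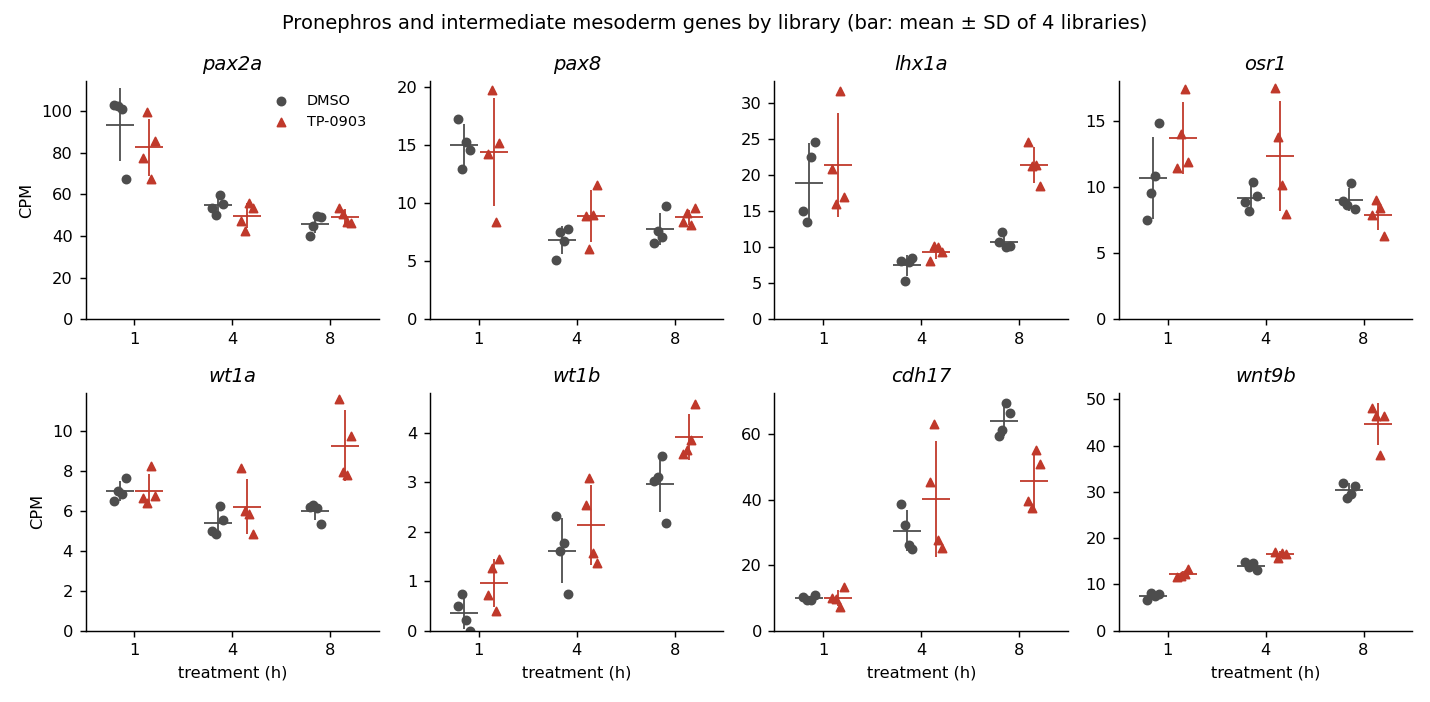
CPM of each of the 8 genes in every library (points) by hours of treatment, with DMSO as grey circles and TP-0903 as red triangles; bars give the mean and SD of 4 libraries, and each panel has its own linear axis from 0. The TP-0903 libraries of wnt9b sit above all DMSO libraries at each time, those of lhx1a and wt1a only at 8 h, and those of cdh17 below them at 8 h.

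lhx1a had the largest change of the 8 genes. At 8 h the DMSO libraries held 10.7, 12.1, 10.0 and 10.2 CPM (replicates 1 to 4) and the TP-0903 libraries 24.5, 21.2, 21.4 and 18.4 CPM. Every treated library was above every control. The rise was 1.99-fold (log2 0.99, SE 0.12, 95% interval 0.74 to 1.25; adjusted p 3.1e-05, edgeR). At 4 h the groups overlapped, with 5.23 to 8.54 CPM in DMSO and 7.99 to 10.1 CPM in TP-0903 (log2 0.33, SE 0.17). At 1 h they overlapped widely, from 13.4 to 24.6 CPM in DMSO and from 16.0 to 31.7 CPM in TP-0903. The response at 8 h exceeded that at 4 h by 0.69 on the log2 scale (SE 0.20, adjusted p 0.028, edgeR interaction of treatment and time), the only such difference among the 8 genes. Of all genes, 14.2% passed this test of 8 h against 4 h. The call was lost when any 1 of 5 libraries was left out: DMSO replicate 3 (adjusted p 0.054) or replicate 4 (0.065) of 4 h, TP-0903 replicate 1 of 4 h (0.051), DMSO replicate 3 of 8 h (0.051) or TP-0903 replicate 1 of 8 h (0.061), all from edgeR. Over all genes, log2 fold changes correlated with gene length at -0.27 at 4 h and at 0.22 at 8 h (Spearman). No interaction was fitted with an adjustment for gene length, and the part of length in these differences between times was not tested. The paralogue lhx1b also rose at 8 h, from 5.87 ± 0.66 to 11.2 ± 1.7 CPM (mean ± SD, n = 4; 1.90-fold, adjusted p 0.00045, edgeR).

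lhx1a is not specific to the kidney, so spinal interneuron genes were read beside it. Of 10 such genes tested at 8 h, 5 rose and none fell, and their median log2 fold change was 0.42. Among all genes tested at 8 h, 15.4% rose and 13.5% fell, with a median of -0.0062. Levels are those of whole embryos, and the part of the spinal cord in them was not tested. The interneuron list genes with the largest rises make or load the inhibitory transmitter GABA. gad1b, a GABA-synthesising enzyme, rose 2.68-fold, slc32a1, the vesicular transporter of GABA and glycine, rose 2.20-fold, and gad2, the other GABA-synthesising enzyme, rose 1.94-fold. bhlhe22, a transcription factor of neurons, rose 1.31-fold, a call lost without any DMSO library or without TP-0903 replicate 1 or 2 (adjusted p up to 0.14, edgeR). Summed over the 10 genes, the level was 131 to 152 CPM in DMSO and 160 to 204 CPM in TP-0903, with no overlap and no gene at 0. At 4 h none of 6 tested interneuron genes passed (0.74% of all genes did) and the sums overlapped (68.8 to 82.0 and 64.4 to 90.8 CPM). The part of interneurons in the rise of lhx1a was not tested.

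wnt9b was the only gene of the 8 whose groups were apart at 1 h, 4 h and 8 h alike. At 1 h the DMSO libraries held 6.75, 8.26, 7.51 and 7.93 CPM and the TP-0903 libraries 11.7, 11.9, 12.3 and 13.3 CPM. At 4 h they held 14.7, 13.7, 14.7 and 13.2 CPM against 17.1, 15.7, 16.8 and 16.6 CPM. At 8 h they held 31.8, 28.7, 29.4 and 31.3 CPM against 48.2, 46.4, 37.9 and 46.3 CPM. Treated libraries were thus above all controls at each time, a pattern that 18 of 14842 genes tested at all times showed (0.121%). Taken singly, it was seen in 0.786% of genes after 1 h of treatment, in 3.51% after 4 h and in 15.5% after 8 h. Whole embryos were sequenced, and the tissue in which wnt9b differed was not tested.

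The rise of wnt9b at 8 h was 1.47-fold (log2 0.56, SE 0.09, 95% interval 0.36 to 0.76; adjusted p 0.00049, edgeR). At 1 h the difference was of like size (log2 0.68, SE 0.15) but did not pass when each time was fitted alone (p 0.0011, adjusted p 1.00, edgeR). It passed in a fit of all 24 libraries, which share 1 estimate of spread (log2 0.67, adjusted p 0.0055, edgeR). At 4 h it was 0.23 (SE 0.10, adjusted p 0.50, edgeR). Differences between times in this response did not pass. From 4 h to 8 h it changed by 0.35 (adjusted p 0.072, or 0.029 without TP-0903 replicate 3 of 8 h, edgeR). From 1 h to 4 h it changed by -0.44 (p 0.011, adjusted p 1.00, edgeR), and in that test 0 of the 8 genes and 0.0% of all genes passed.

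cdh17 was the gene that fell. At 8 h the DMSO libraries held 59.3, 61.2, 69.5 and 66.2 CPM and the TP-0903 libraries 39.4, 37.4, 55.0 and 50.9 CPM. All treated libraries were below all controls, and replicates 1 and 2 of TP-0903 were lowest. The level fell by 0.49 on the log2 scale (SE 0.11, 95% interval -0.73 to -0.24; adjusted p 0.0056, edgeR). It did not pass in the fit of all 24 libraries (adjusted p 0.20, edgeR).

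At 4 h cdh17 had the opposite sign without passing (log2 0.39, SE 0.26, adjusted p 0.66, edgeR). DMSO libraries held 38.6, 32.3, 26.1 and 24.97 CPM and TP-0903 libraries 45.2, 62.9, 27.6 and 25.1 CPM. The excess lay in TP-0903 replicates 1 and 2, while replicates 3 and 4 were within the control range. The same 2 libraries had the most cyp26a1 (1012 and 1021 CPM, against 558 and 486 CPM in replicates 3 and 4, and 39.6 to 48.1 CPM in DMSO) and, with 17.4 and 13.8 CPM, the most osr1. The controls of cdh17 also stood highest in replicates 1 and 2. Among the TP-0903 libraries of 4 h, wt1a and wt1b were also highest in replicates 1 and 2, and pax2a, pax8, lhx1a and wnt9b were not. No label links a replicate number at 4 h with the same number at 8 h. At 8 h the TP-0903 libraries numbered 1 and 2 had the most cyp26a1 (232 and 280 CPM, against 162 and 130 CPM in replicates 3 and 4). These 8 h libraries had the least cdh17. The change of the cdh17 response from 4 h to 8 h was -0.86 (SE 0.31) and did not pass (adjusted p 0.070, edgeR). It passed with DESeq2 (adjusted p 0.0481), and in edgeR's fit without DMSO replicate 1 (0.044), TP-0903 replicate 3 (0.031) or TP-0903 replicate 4 (0.022) of 4 h. It also passed in a fit with a replicate block, which is given in the last section.

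**Figure D2:**
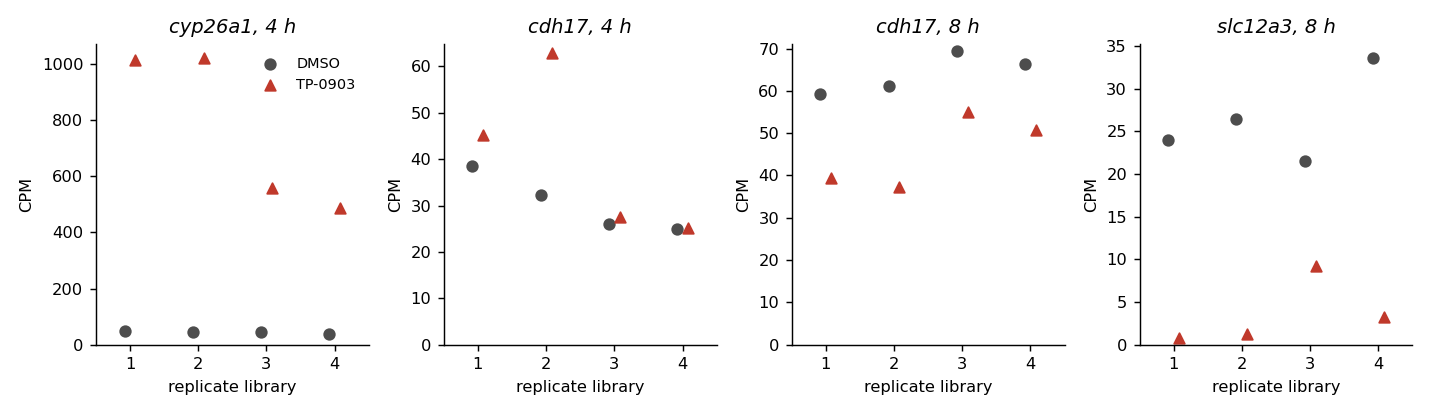
CPM by replicate library for cyp26a1 and cdh17 at 4 h and for cdh17 and slc12a3, a transporter of the distal tubule, at 8 h; grey circles are DMSO and red triangles TP-0903, on linear axes from 0. At 4 h TP-0903 replicates 1 and 2 hold the most cyp26a1 and cdh17, and at 8 h TP-0903 replicates 1 and 2 hold the least cdh17 and slc12a3. Replicate numbers are not linked between times by any label.

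Of the podocyte factors, wt1a rose at 8 h. The DMSO libraries held 6.18, 6.33, 6.17 and 5.35 CPM and the TP-0903 libraries 11.6, 7.99, 7.82 and 9.76 CPM. The groups did not overlap, and the treated libraries were spread more widely than the controls. The rise was 1.54-fold (log2 0.62, SE 0.16, 95% interval 0.28 to 0.96; adjusted p 0.0097, edgeR). wt1b pointed the same way without passing. Its 8 h libraries held 3.03, 3.11, 3.53 and 2.18 CPM in DMSO and 3.57, 3.66, 3.85 and 4.58 CPM in TP-0903. The groups did not overlap, but these were only 20 to 38 counts a library (log2 0.41, SE 0.20, 95% interval -0.03 to 0.84; adjusted p 0.15, edgeR). With wt1b, 5 of the 8 genes had groups apart at 8 h, beside 28.9% of all genes. At 1 h wt1b had 0 to 6 counts in DMSO and 4 to 11 in TP-0903 and was too low to test, and a difference could not be read at this depth. At 4 h neither gene passed (wt1a log2 0.17, SE 0.19; wt1b 0.37, SE 0.38).

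The early field factors pax2a and pax8, and osr1, did not pass at any time. At 8 h pax2a was at 40.1, 44.6, 49.4 and 48.9 CPM in DMSO and 53.5, 50.5, 46.7 and 46.4 CPM in TP-0903, and the groups overlapped (log2 0.10, 95% interval -0.08 to 0.29). pax8 was at 6.58 to 9.71 and 8.06 to 9.52 CPM (log2 0.17, interval -0.15 to 0.50), and osr1 at 8.29 to 10.3 and 6.27 to 8.98 CPM (log2 -0.19, interval -0.51 to 0.12). A change inside these intervals could not be resolved at this depth and spread. The change in the osr1 response from 4 h to 8 h was -0.56 (adjusted p 0.17, or 0.042 without TP-0903 replicate 4 of 4 h, edgeR). At 4 h osr1 spread from 7.95 to 17.4 CPM in TP-0903 and only from 8.19 to 10.4 CPM in DMSO (log2 0.39, SE 0.22). pax8 at 4 h was at 5.11 to 7.79 CPM in DMSO and 6.01 to 11.6 CPM in TP-0903 (log2 0.40, SE 0.21). In all, 7 of the 8 genes had a positive log2 fold change at 4 h, beside 50.2% of all genes, with a median of 0.35 and adjusted p from 0.50 to 0.78 (edgeR). At 1 h pax2a was at 67.1 to 103 CPM in DMSO and 67.4 to 99.5 CPM in TP-0903 (log2 -0.18, SE 0.18).

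**Figure D3:**
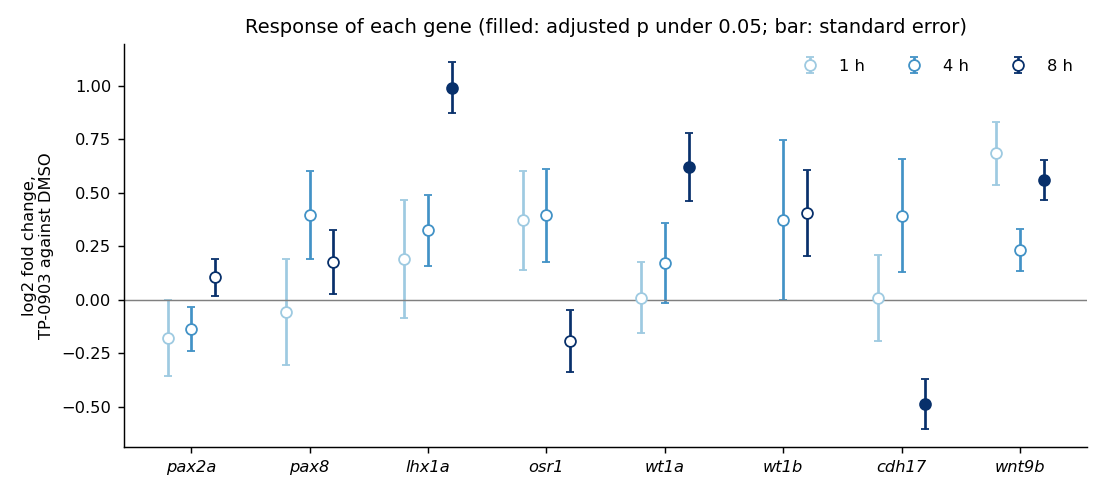
log2 fold change of TP-0903 against DMSO for each gene at 1 h, 4 h and 8 h (light to dark), with the standard error of edgeR's fit as bars and filled points where the adjusted p was under 0.05. Only 8 h points are filled, for lhx1a (0.99), wt1a (0.62), wnt9b (0.56) and cdh17 (-0.49), and wt1b has no point at 1 h.

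In DMSO alone the genes followed different courses with age. From 1 h to 4 h cdh17 rose 3.16-fold (log2 1.66) and wnt9b 1.89-fold (log2 0.92), while lhx1a fell by 1.27, pax8 by 1.09 and pax2a by 0.73 on the log2 scale. These 5 of 7 tested genes passed, beside 19.1% of all genes. Without DMSO replicate 4 of 1 h, 7627 of 16115 tested genes passed, where 3042 of 15948 did with it (edgeR). From 4 h to 8 h cdh17 rose again, 2.10-fold, wnt9b 2.14-fold, wt1b 1.83-fold and lhx1a 1.43-fold, and pax2a fell by 0.26 on the log2 scale. These were 5 of 8, beside 51.9% of all genes. The call of pax2a was lost without DMSO replicate 3 of 4 h (adjusted p 0.058) or replicate 1 (0.056) or 2 (0.056) of 8 h, and that of wt1b without DMSO replicate 4 of 4 h (0.082) or replicate 2 (0.058) or 3 (0.077) of 8 h, all from edgeR. osr1 and wt1a passed in neither step. Each time has a table of its own, so stage and table cannot be told apart, and the gene length implied for wt1a was 1774 bases at 4 h and 1876 bases at 8 h. Implied lengths differed by over 2% between 4 h and 8 h in 1760 of 15973 genes, and between 1 h and 4 h in 0. Set beside the course of the controls, cdh17 at 8 h was lower in TP-0903 while rising with age in DMSO, and wnt9b was higher in TP-0903 while also rising with age.

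Levels between genes were compared per length, as FPKM. pax2a was highest in DMSO at 1 h (28.2 ± 6.5 FPKM, mean ± SD, n = 4) and 4 h (16.3 ± 1.3 FPKM), apart from all others. At 8 h cdh17 led in DMSO (17.3 ± 1.3 FPKM), above pax2a (13.5 ± 1.4 FPKM) in every library. In TP-0903 at 8 h pax2a stood first (14.8 ± 1.0 FPKM) and its range overlapped with that of cdh17 (12.6 ± 2.3 FPKM). wnt9b (9.49 ± 1.01 FPKM) and lhx1a (8.76 ± 1.00 FPKM) came next with overlapping ranges. In DMSO at 8 h lhx1a stood sixth, overlapping with osr1 above it and apart from wt1a below it. wt1b was lowest in every condition, with 1.32 ± 0.25 FPKM in DMSO at 8 h.

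The genes whose levels followed each of these most closely were ranked by Pearson correlation of log2(CPM + 1) over all 24 libraries, among 14842 genes, as a description. The libraries share stage, table and treatment, whose parts in these values were not tested apart. cdh17 was closest to tfr1a (0.99), a transferrin receptor, and atp1a1a.4 (0.98), a sodium pump subunit of the kidney tubule. wnt9b was closest to irx5a (0.98), a homeobox factor, and to nrip1b and pfn2 (both 0.97). pax2a was closest to atad5b (0.97), trit1 (0.97) and n4bp2 (0.96). The closest genes to lhx1a (pkib 0.86), pax8 (efr3bb 0.89), osr1 (mospd2 0.82) and wt1a (lmln 0.75) were less alike. Among the 8 genes themselves, pax2a and pax8 ran together (0.81), as did cdh17 and wnt9b (0.80), while pax2a and cdh17 ran in opposite directions (-0.89).

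Genes of the pronephric segments were then read at 8 h. Their levels are those of whole embryos, and the part of the pronephros in them was not tested. The count of each list stands beside all genes tested at 8 h, of which 15.4% rose and 13.5% fell, with a median log2 fold change of -0.0062, and no list was tested against the other genes. The lists were chosen with earlier results of these data known, so their counts cannot show an excess over all genes. The list of distal tubule and duct genes held the largest change: slc12a3, the sodium-chloride cotransporter of the distal late segment, fell 7.13-fold. Its DMSO libraries held 23.9, 26.5, 21.5 and 33.6 CPM and its TP-0903 libraries 0.744, 1.22, 9.26 and 3.25 CPM. Every treated library was below every control, with replicates 3 and 4 less so, as for cdh17 at 8 h. The log2 fold change was -2.83 (SE 0.40, adjusted p 0.00014, edgeR), and without TP-0903 replicate 3, the highest treated library, it was -3.89. Leaving out any other library gave -2.92 to -2.52. At 4 h slc12a3 did not pass (17.0 ± 6.5 and 12.8 ± 6.0 CPM, adjusted p 0.71, edgeR).

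Of 16 tested distal tubule and duct genes 4 rose and 2 fell, with a median log2 fold change of 0.17, where 28.9% of all genes passed. The other called genes moved less than slc12a3. gata3, a transcription factor of the duct, rose 1.56-fold, mecom, a factor of the distal tubule, rose 1.33-fold, and irx1a, an Iroquois factor, fell 1.57-fold. slc12a1, the sodium-potassium-chloride cotransporter of the distal early segment, is a relative of slc12a3 and was chosen after its values were seen. It was at 27.6 ± 4.4 CPM in DMSO and 33.4 ± 2.4 CPM in TP-0903 (mean ± SD, n = 4; adjusted p 0.074, edgeR).

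Of 8 proximal tubule genes, 2 fell and none rose (median -0.12), a share of calls near that of all genes: slc26a1, a sulphate transporter, fell 1.69-fold, and slc3a1, a subunit of an amino acid transporter, fell 1.46-fold. Of 4 podocyte and glomerulus genes, foxc1a, a forkhead factor, rose 1.45-fold, while mafba fell 1.92-fold and podxl 1.17-fold. The call of podxl held only without DMSO or TP-0903 replicate 4 and was otherwise lost in fits that left out 1 library (adjusted p 0.057 to 0.102, edgeR). mafba is a transcription factor of podocytes that is also known from the hindbrain, and podxl encodes a surface protein of podocytes and vessels. wt1a thus rose in the same libraries in which 2 of these 4 genes fell.

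Of 16 tubule-wide and early renal regulators, 4 rose and 2 fell (median -0.09). cldnb, a claudin of several epithelia, fell by 0.91 on the log2 scale and sall4, a zinc finger factor, by 0.58, while lhx1b and hoxd3a, a Hox factor, rose 1.90-fold and 1.55-fold. Multiciliated cell genes gave 1 rise (etv5a, an ETS factor, 1.34-fold) and 1 fall (jag2b, a Notch ligand, 1.22-fold, a call lost without DMSO replicate 2 or 4 or TP-0903 replicate 1, 3 or 4, adjusted p up to 0.092, edgeR) among 8, also near the share of all genes. Only 2 kidney list genes passed before 8 h, both at 4 h among the regulators: hnf1ba, a homeobox factor of the tubule, rose by 0.63 on the log2 scale and foxc1b fell by 0.64. Of all genes, 0.74% passed at 4 h. The calls of hnf1ba and foxc1b were both lost when any DMSO library or TP-0903 replicate 1 of 4 h was left out (adjusted p 0.058 to 0.116, edgeR). At 8 h neither gene passed, with log2 -0.06 for hnf1ba (adjusted p 0.67, edgeR) and -0.24 for foxc1b (adjusted p 0.11, edgeR).

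**Figure D4:**
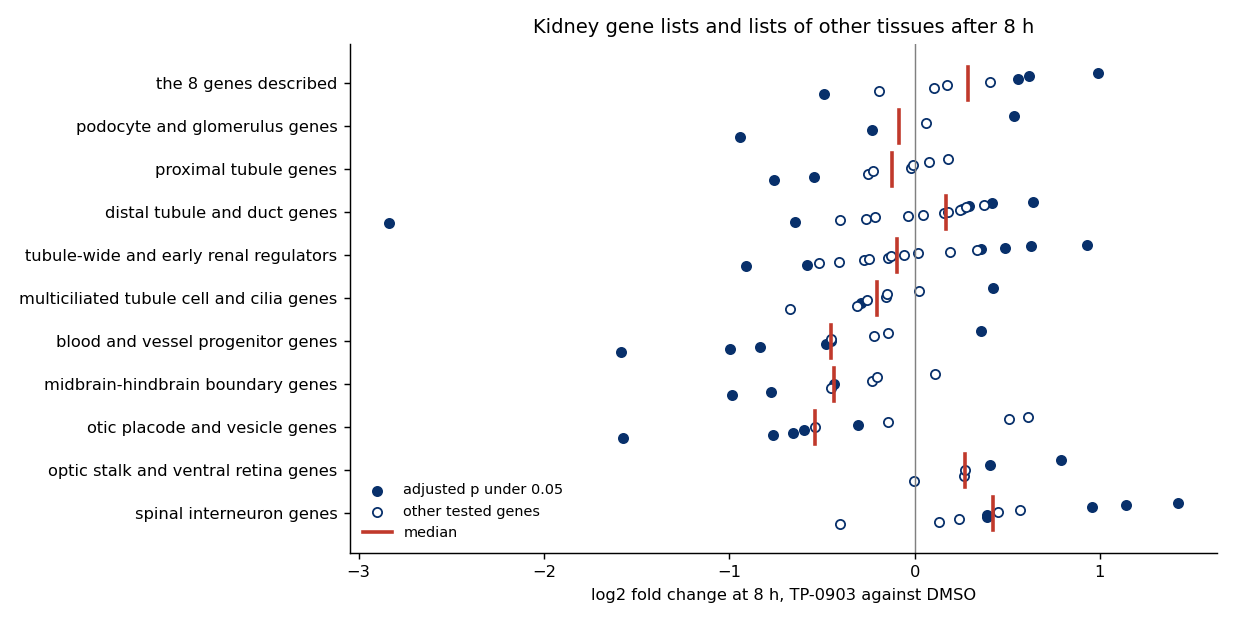
log2 fold change at 8 h of the 8 genes and of each tested gene in the 10 lists (points; filled where the adjusted p was under 0.05), with the list's median as a red line. slc12a3 stands alone at -2.83, and the blood, midbrain-hindbrain and ear lists have medians between -0.54 and -0.44 while the spinal interneuron list has 0.42.

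Genes of tissues that neighbour the kidney field, or that share pax2a or pax8 with it, were read in the same libraries. Of 9 blood and vessel progenitor genes 5 fell and 1 rose (median -0.45), among them etv2, an ETS factor that starts the vessel lineage, which fell 3.00-fold, lmo2 (2.00-fold) and tal1 (1.78-fold), while fli1a fell by 0.48 on the log2 scale. Their summed level was 238 to 278 CPM in DMSO and 178 to 197 CPM in TP-0903, with none at 0. lmo2, tal1 and fli1a encode transcriptional regulators of the same progenitors. The part of these cells in the values of the kidney genes was not tested. The lists share genes: gata2a, the gene that rose here (log2 0.36, adjusted p 0.040, edgeR), is also counted among the renal regulators that rose. evx1, which did not pass at 8 h, is in both the distal tubule and the interneuron lists.

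Of 7 midbrain-hindbrain boundary genes 3 fell and none rose: her5, a Hairy-related repressor, 1.98-fold, wnt1, a Wnt ligand, 1.71-fold, and fgf8a, an FGF ligand, 1.35-fold. At 4 h fgf8a had the opposite sign and passed as the only gene of this list, at 46.8 ± 4.3 CPM in DMSO and 68.7 ± 4.7 CPM in TP-0903 (mean ± SD, n = 4; 1.47-fold higher, adjusted p 0.017, edgeR), a call lost without DMSO replicate 1, 2 or 4 or TP-0903 replicate 1 of 4 h (adjusted p 0.054 to 0.074, edgeR). The median of the list at 8 h was -0.44, and its sum was 128 to 143 CPM in DMSO and 103 to 116 CPM in TP-0903. Of 9 ear genes 5 fell and none rose, atoh1a, a hair cell factor, by the most (2.98-fold), then dlx3b (1.70-fold) and foxi1 (1.51-fold), factors of the ear placode, and atoh1b (1.58-fold). The call of atoh1b was lost without DMSO replicate 1, 3 or 4 or TP-0903 replicate 2 or 4 (adjusted p up to 0.105, edgeR). The ear sum was 223 to 262 CPM in DMSO and 185 to 199 CPM in TP-0903. Of 5 optic stalk and ventral retina genes 2 rose, cyp1b1 (1.73-fold) and vax1 (1.33-fold), and their sums overlapped (109 to 128 and 122 to 139 CPM). The call of vax1 was lost without DMSO replicate 1 or 3 or TP-0903 replicate 1 or 2 (adjusted p up to 0.135, edgeR). No list had a gene at 0 throughout a group at 8 h. Beside these shifts pax2a, which these tissues also express, and pax8, which the ear also expresses, showed the intervals given above. The part of each tissue in the levels of pax2a and pax8 was not tested.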

How the data were processed

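The study's methods describe stranded total-RNA libraries depleted of ribosomal RNA and single-end reads. The authors mapped these with Novoalign (2.08.03 in the submitters' processing notes) to zv9 and its splice junctions and counted alignments per Ensembl gene. The deposited tables, 1 per time, hold raw counts and FPKM, which divide counts by gene length and depth. The deposited log2 ratios and scores come from the authors' own DESeq2 comparison (1.4.5 in the notes) and were not used.

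Counts were filtered with filterByExpr, scaled by TMM and tested with edgeR 4.0.16 (glmQLFit, glmQLFTest; limma 3.58.1, R 4.3.3) on the 4 DMSO and 4 TP-0903 libraries of each time. Interactions used 16 libraries, and DMSO courses 8. Benjamini-Hochberg adjustment ran over all genes tested, at 0.05. Standard errors are the log2 fold change over the root of F, and 95% intervals use the fit's degrees of freedom. Steps were tested on simulated data. The alternatives were DESeq2 1.42.0, RLE factors, no filter, a replicate block, gene length offsets, thinning to the smallest library, 1 fit of all 24 libraries, and libraries left out. Length offsets, thinning and the fit of all 24 libraries were run for the comparisons at each time, not for interactions or DMSO courses. The study describes the 4 libraries of a condition as biological replicates.

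The 8 genes and the 10 lists were chosen with earlier results of these data known. Named are the 8 genes, cyp26a1, up to 4 genes of each list with the largest change among those past the threshold, and up to 3 genes most like each of the 8. Genes were matched by symbol alone. Precision is set by totals of 3879310 to 10582470 counts.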

Additional observations from a re-analysis of the deposited data

Results flagged for a closer look

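Of 48 groups of 4 libraries, 2 had a library far from the other 3 by Dixon's ratio (critical value 0.829), where chance gives about 2.4. For pax2a in DMSO at 1 h, replicate 4 was lowest at 67.1 CPM, with a gap of 0.937 of the group's range. The other libraries were at 101 to 103 CPM. In replicate 4 cyp26a1 was at 92.3 CPM, against 41.9 to 45.0 CPM in the other DMSO libraries of 1 h. Without it, 562 genes had an unadjusted p under 0.05 at 1 h, where 214 did with it (edgeR). In TP-0903 at 1 h, replicate 3 had the least pax2a (67.4 CPM), pax8 (8.38 CPM) and cyp26a1 (292 CPM). It also had the most lhx1a (31.7 CPM). The first principal component of deviations from group means held 70.8% of their variance at 1 h. It held 37.5% at 4 h and 25.8% at 8 h. For wt1a in DMSO at 8 h, replicate 4 was lowest at 5.35 CPM, with a gap of 0.841 of the range. Without that library wt1a still passed, as in every fit that left out 1 library of 8 h (adjusted p 0.0099 to 0.036, edgeR).

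The response of lhx1a to TP-0903 differed between times by the test of the interaction, being 0.69 higher at 8 h than at 4 h on the log2 scale.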

How the results depend on the processing

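At 8 h, lhx1a, wnt9b, wt1a and cdh17 kept their calls in all 8 fits without 1 library and under every other setting, except cdh17 in the fit of all 24 libraries. That fit called 1478 genes at 8 h (5050 with each time alone), 13 at 1 h and 1 of the 8 genes, wnt9b, at 1 h. It also ended the 8 h calls of slc26a1 (adjusted p 0.27), slc3a1 (0.17), mecom (0.14), cldnb (0.064), hoxd3a (0.12), her5 (0.052), fgf8a (0.15), foxi1 (0.31), cyp1b1 (0.40), podxl (0.31), jag2b (0.32), atoh1b (0.14), vax1 (0.36) and bhlhe22 (0.15), and the 4 h calls of foxc1b (0.059) and fgf8a (0.18), all from edgeR; the cause was not tested. Of the 8 other settings, that fit included, foxc1b kept its 4 h call in 6. At 8 h jag2b kept its call in 6 of 8, and podxl, atoh1b, vax1 and bhlhe22 each in 5 of 8. Genes called at 1 h (0) became 14 with DESeq2, 1 with length offsets and 1 after thinning. They became 5 without both DMSO replicate 4 and TP-0903 replicate 3, and 0 to 2 without 1 library. Genes called at 4 h (118) became 213 with DESeq2 and 56 to 131 without 1 library (56 to 74 without any DMSO library or TP-0903 replicate 1). Of the 8 genes, those passing in the interaction of 8 h and 4 h (1) became 2 with DESeq2 and 0 to 3 without 1 library. Of all genes, 2447 of 15913 passed that test with DESeq2, and 1453 to 2546 without 1 library (edgeR). Those of the 8 passing in DMSO from 4 h to 8 h (5) became 3 to 5 without 1 library. There 7239 to 8103 of all genes passed (edgeR).

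No label pairs the libraries by replicate number, and the main fits used no pairing. Same-number correlations of deviations were -0.73 to 0.60 at 1 h, 0.079 to 0.44 at 4 h and -0.08 to 0.06 at 8 h. At 4 h all were above 0, and replicates 3 and 4 were closest to their own number, so pairing at 4 h was not settled. With a replicate block, 223 genes passed at 4 h, and 306 with length offsets as well. With the block 2 of the 8 genes passed the interaction of 8 h and 4 h, lhx1a and cdh17 (adjusted p of cdh17 0.010, edgeR). Of all genes, 2547 of 15913 did so. Signs turned with the block for cdh17 at 1 h (-0.015, or -0.0068 with length offsets) and the osr1 interaction of 4 h and 1 h (-0.014). The block changed no other call of the 8 genes and ended those of podxl, jag2b, vax1 and bhlhe22 at 8 h.

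Other signs turned only where the main change did not pass. The largest such changes were 0.19 for lhx1a at 1 h and -0.16 for osr1 in DMSO from 1 h to 4 h. At 1 h wt1a was -0.015 with length offsets (-0.017 with the block as well) and -0.042 without both DMSO replicate 4 and TP-0903 replicate 3, where pax8 was 0.13, and cdh17 was -0.0011 with DESeq2, -0.023 after thinning and -0.0061 in the fit of 24. Without 1 library, log2 changes at 1 h ran from -0.26 to 0.14 for pax8, -0.064 to 0.35 for lhx1a, -0.081 to 0.052 for wt1a and -0.15 to 0.14 for cdh17. The interaction of 4 h and 1 h ran from -0.032 to 0.18 for pax2a, -0.014 to 0.40 for lhx1a and -0.17 to 0.21 for osr1, that of 8 h and 4 h from -0.17 to 0.30 for wt1b, and osr1 in DMSO from -0.28 to 0.019 (4 h against 1 h) and -0.10 to 0.020 (8 h against 4 h). Counts limit wt1b (0 to 38 a library), wt1a, osr1, pax8 and, at 1 h, every gene in the shallower DMSO libraries.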
